A study of Mus musculus with 24 samples.

Results

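ATP-binding cassette (ABC) transporters were followed in RNA sequencing of mouse lumbar spinal cord. Members were taken by symbol, as every row of the count table named Abc, then a subfamily letter from a to g, then a number with or without a or b at the end. The rule found 50 of 55418 genes: 16 in subfamily A, 10 in B, 10 in C, 4 in D, 1 in E, 3 in F and 6 in G. Of these, 45 had a median of at least 10 counts over the cords and are called detected, and the same number passed the filter on low counts and were tested.

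The cords, segments L4 to L6, came from C57BL/6J mice that were 8 to 10 weeks old at the start. The 8 groups of 3 mice crossed genotype (wild-type, or a knockout of Chrna7 specific to myeloid cells), treatment and sex. Each dose of paclitaxel was 1 mg per kg, with 4 injections on alternate days, and vehicle was the solvent of Kolliphor, ethanol and water. The cords were collected for RNA on day 7, counted from the first injection. Both genotypes received both treatments. The sources used here do not name the driver of the knockout. The series' text calls the 3 mice of a group biological replicates, and no label pairs mice between groups.

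ABC proteins carry ATP-binding cassettes, and in most of them ATP hydrolysis drives transport across a membrane. Members of subfamilies E and F have cassettes without membrane spans, and Abce1 works on ribosomes. Abcb1a and Abcb1b encode the P-glycoproteins of the mouse. These pumps export many drugs, paclitaxel among them. The product of Abcb1a sits on the blood side of the endothelium of the brain and cord and returns such drugs to the blood. Other members move sterols and phospholipids, carry fatty acids into peroxisomes, serve mitochondria or form part of potassium channels.

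Libraries held 88812295 to 112158154 counts (median 94343662). Replicate 3 of the wild-type females on paclitaxel stood apart: 12 marker genes of sensory ganglia reached 1352% of their median sum in the 23 other libraries, and 10 oligodendrocyte markers only 12.3%. It was left out of every test below and is described at the end. Chrna7 lay at 9.38 to 15.9 CPM (counts per 1000000 counts of the library; median 14.2) in 11 wild-type cords and at 9.09 to 14.5 CPM (median 13.1) in 12 knockout cords, so the ranges overlapped. Whole cord RNA cannot check a deletion in myeloid cells only.

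The library numbers in the labels matter for the comparisons that set the sexes' responses apart. Libraries 1 to 12 hold all females on vehicle and all males on paclitaxel, of both genotypes. Libraries 13 to 24 hold all males on vehicle and all females on paclitaxel. The labels do not say what the numbers stand for. Paclitaxel against vehicle and knockout against wild-type, taken over both sexes, are balanced over these numbers. The difference between the sexes in the response to paclitaxel is the same contrast as libraries 1 to 12 against 13 to 24, and the 2 cannot be told apart. Paclitaxel against vehicle within males, or within females, also sets one range of numbers against the other.

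Abcb1a and Abcb1b lie side by side on chromosome 5, and they share stretches of sequence. Abcb1a spans bases 8660077 to 8748575 and Abcb1b bases 8798147 to 8866315 on the plus strand (GRCm38, GENCODE M21), 49571 bases apart, followed by Abcb4 at 8893717 to 8959231. Their coding sequences are each 3828 bases long and 87.6% identical over the alignment. The longest identical run has 338 bases, in coding exons 12 and 13, and its middle 150 bases are given because they are the same in both genes. They are coding bases 1451 to 1600 of Abcb1a (chr5:8702481-8702850) and 1460 to 1609 of Abcb1b (chr5:8824801-8825170), counted from the start codon, and each stretch spans an intron.
Abcb1a and Abcb1b, identical: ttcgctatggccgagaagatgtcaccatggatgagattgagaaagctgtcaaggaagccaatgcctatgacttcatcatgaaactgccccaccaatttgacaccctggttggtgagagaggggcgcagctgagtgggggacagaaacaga

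The 120-base window in which the coding sequences differ most, in coding exons 16 and 17, is given for comparison. It covers coding bases 2128 to 2247 of Abcb1a (chr5:8715817-8719026) and 2134 to 2253 of Abcb1b (chr5:8827778-8828870). Capitals mark the 38 positions at which the pair differs.
Abcb1a: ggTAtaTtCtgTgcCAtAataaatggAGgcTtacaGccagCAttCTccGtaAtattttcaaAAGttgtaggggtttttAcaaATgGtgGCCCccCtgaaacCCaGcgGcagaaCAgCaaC
Abcb1b: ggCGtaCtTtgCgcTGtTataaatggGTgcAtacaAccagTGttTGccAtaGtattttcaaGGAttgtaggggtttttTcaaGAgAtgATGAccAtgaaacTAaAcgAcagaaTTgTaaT

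Of all 50-base windows in the annotated transcripts, 17.6% of those of Abcb1a and 11.2% of those of Abcb1b occurred in another member. The share was 1.56% for Abcb4, 2.63% for Abca17, 1.52% for Abca3, 1.64% for Abca8a and 1.42% for Abca8b, and at most 0.243% for the other members. How many reads of the pair were left uncounted for this was not tested. The spans of Abcg5 and Abcg8, introns included, overlap by 6710 bases on chromosome 17 on opposite strands. Counting without strand cannot separate reads where exons of both overlap, and the extent of that was not measured.

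Levels of different members are compared as CPM per kilobase of annotated exon, and the same member is compared between cords in CPM. In bulk tissue, fewer cells of a type and less RNA per cell cannot be told apart. The highest member per kilobase was Abca2, a transporter of lysosomes that is rich in oligodendrocytes, with a median of 70.2 and a range of 60.4 to 79.4 per kilobase over 23 cords. It alone made up 21.5 to 24.7% of the summed CPM of all members. The members summed to 2342 to 2688 CPM.

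After Abca2 came Abcf2 (median 37.7 per kilobase), Abcc5 (29.7), Abcf3 (26.8), Abce1 (20.5), Abcd3 (17.4) and Abcd2 (16.2). Every cord's value of Abca2 lay above every value of Abcf2, those of Abcf2 above those of Abcc5, and those of Abcf3 above those of Abce1. For all other neighbours in the order of the 50 members, the ranges over the cords overlapped or touched. Subfamily F, soluble proteins linked to translation, had a median of 26.8 per kilobase over its 3 members, subfamily D 10.2 over 4, B 8.29 over 8 detected, A 4.66 over 13, G 2.27 over 6 and C 2.18 over 10.

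**Figure D1:**
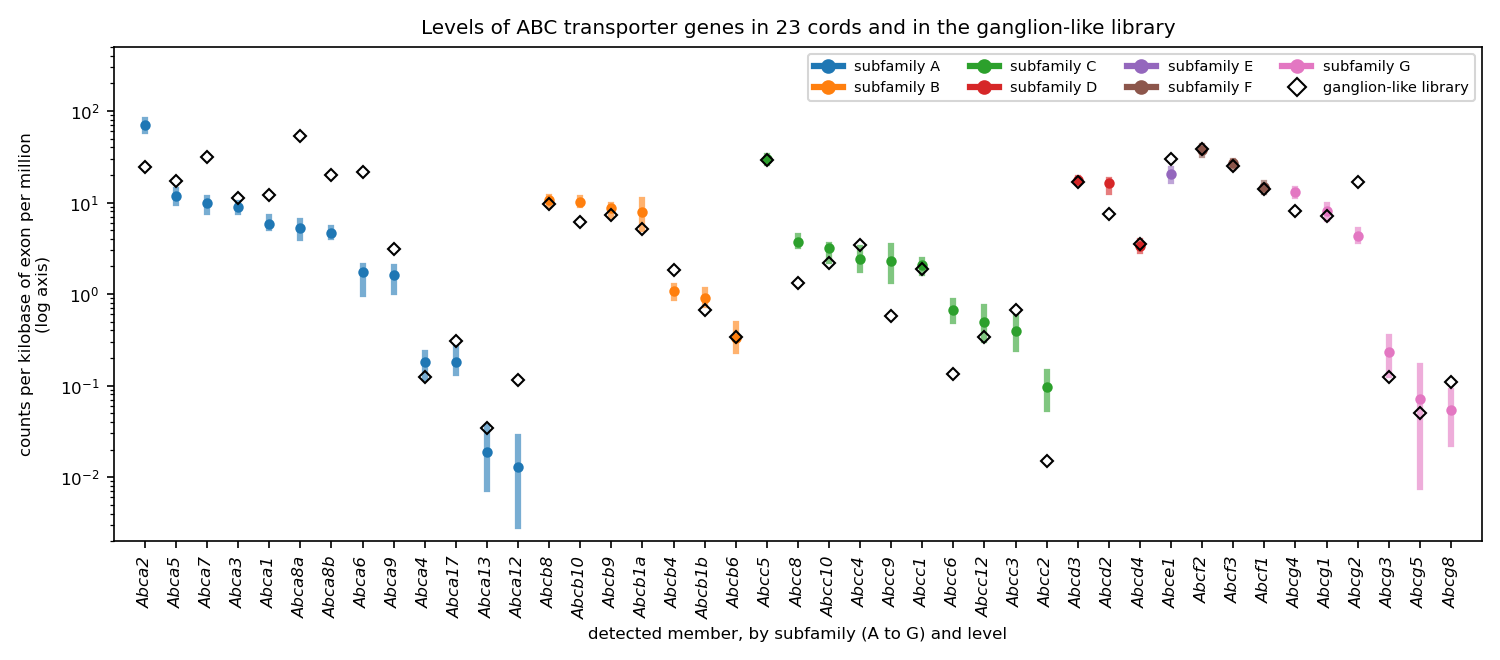
Level of 43 of the 45 detected members in CPM per kilobase of exon, on a log axis, by subfamily. Points are medians and bars the range over 23 cords, and open diamonds show the ganglion-like library. Abca2 is the highest member in the cords at a median of 70.2 per kilobase, and Abca8a reaches 53.4 in the ganglion-like library.

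Among the exporters of drugs and conjugates, Abcc5, a carrier of cyclic nucleotides and other organic anions, was the highest, at 286 to 348 CPM (median 317). Abcb1a had a median of 43.6 CPM and ran from 27.8 to 58.7 CPM, and Abcb1b had a median of 7.30 CPM and ran from 6.11 to 8.75 CPM. Abcg2, which encodes the breast cancer resistance protein, another efflux pump of the endothelium, lay at 31.2 to 41.3 CPM (median 35.2). Per kilobase, Abcb1a exceeded Abcb1b in every cord, by 4.64-fold to 13.2-fold (median 8.75-fold), with the effect of the shared stretches not tested.

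Abcc1, which exports glutathione conjugates, lay at 25.7 to 35.7 CPM (median 31.1), but its annotated exons sum to 15092 bases and its level per kilobase was only 2.06. Abcc10 had a median of 3.18 per kilobase, Abcc4 of 2.43, Abcc3 of 0.395 and Abcc2 of 0.0974. The coefficient of variation over the 23 cords was 16.4% for Abcb1a. Among members with a median above 5 CPM only Abcc9 varied more, at 17.9%. It was 10.4% for Abcb1b, 7.96% for Abcg2 and 7.29% for Abcc1.

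Among the lipid carriers, Abca5 had a median of 11.6 per kilobase, Abcg4, a sterol exporter of neurons and glia, 13.1, and Abca7, a phospholipid carrier, 9.93. Abca3 stood at 8.86, Abcg1 at 8.09, and Abca1, which loads cholesterol onto apolipoproteins, at 5.80. Abca8a (5.33), Abca8b (4.66), Abca6 (1.74) form a row of neighbours with Abca9 and Abca5 on chromosome 11, and Abca9 had a median of 12.9 CPM. Abcb4, which moves phosphatidylcholine into bile, had 1.07 per kilobase. Low in the cord were Abca4, the retinoid carrier of photoreceptors (0.183), Abcg5 (0.0708) and Abcg8 (0.0540), the sterol pump of gut and liver, Abca13 (0.0190) and Abca12 of the skin (0.0130).

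Abcb8 had a median of 10.6 and Abcb10 of 10.2 per kilobase, both of the inner mitochondrial membrane. Abcb9 of lysosomes stood at 8.62, and Abcb6, a porphyrin carrier, had 0.331. Abcd2 and Abcd3, carriers of fatty acids into peroxisomes, stood far above Abcd4, of cobalamin export from lysosomes, at 3.34 per kilobase. The sulfonylurea receptors, regulatory subunits of ATP-sensitive potassium channels, stood at 3.73 (Abcc8) and 2.30 (Abcc9). Abca15 and Abca16 had no count in any of the 23 cords, where 3 counts equal 0.0267 to 0.0338 CPM in a library. A limit of 3 for a count of 0 takes counts as independent. Mates of a pair were counted separately here, so the limit is higher. The other members without a test, Abcb11, Abca14 and Abcb5, reached at most 0.157 CPM.

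Paclitaxel against vehicle was tested over all cords as the mean of the 4 combinations of genotype and sex. No member of 45 was called at an edgeR adjusted p under 0.05, where 0.0197% of all 25372 tested genes were called. At an unadjusted p under 0.05 there were 5 members, or 11.1%, against 10.2% of all genes. DESeq2 called 1 member, Abce1, or 2.22%, against 0.623% of all genes. The median log2 difference was 0.01 over the members, with 25 of 45 above 0, and 0.01 over all genes. By role, 6 of 9 drug exporters, 6 of 17 lipid carriers, 4 of 5 members of mitochondria and lysosomes, 2 of 4 of peroxisomes and cobalamin, 2 of 4 soluble members and both channel subunits were above 0, none of them called.

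The pumps that carry paclitaxel had overlapping values in both arms. Abcb1a had a lowest, median and highest value of 27.8, 43.1 and 58.7 CPM in 12 vehicle cords and of 36.7, 47.1 and 52.5 CPM in 11 paclitaxel cords. The paclitaxel values thus lay inside the range of the vehicle values, and the log2 difference was 0.03 (95% interval -0.13 to 0.18). For Abcb1b the vehicle cords held 6.16, 7.35 and 8.75 CPM and the paclitaxel cords 6.11, 7.10 and 8.48 CPM, a log2 difference of -0.04 (-0.16 to 0.08). In the same comparison 11 of 12 endothelial markers were above 0, with a median of 0.14 and none called, and with their level as a covariate Abcb1a stood at -0.12.

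Abcg2 ran from 32.7 through a median of 36.4 to 41.3 CPM on vehicle and from 31.2 through 34.9 to 41.3 CPM on paclitaxel, a log2 difference of -0.05 (95% interval -0.13 to 0.03). Abcc1 ran from 27.4 through 30.8 to 33.2 CPM on vehicle and from 25.7 through 31.1 to 35.7 CPM on paclitaxel, a log2 difference of 0.03 (-0.06 to 0.11). The groups overlapped almost fully for both genes. With all 24 libraries in the fit, the sign turned for Abcb1a (-0.01) and for Abcg2 (0.20), and neither passed.

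**Figure D2:**
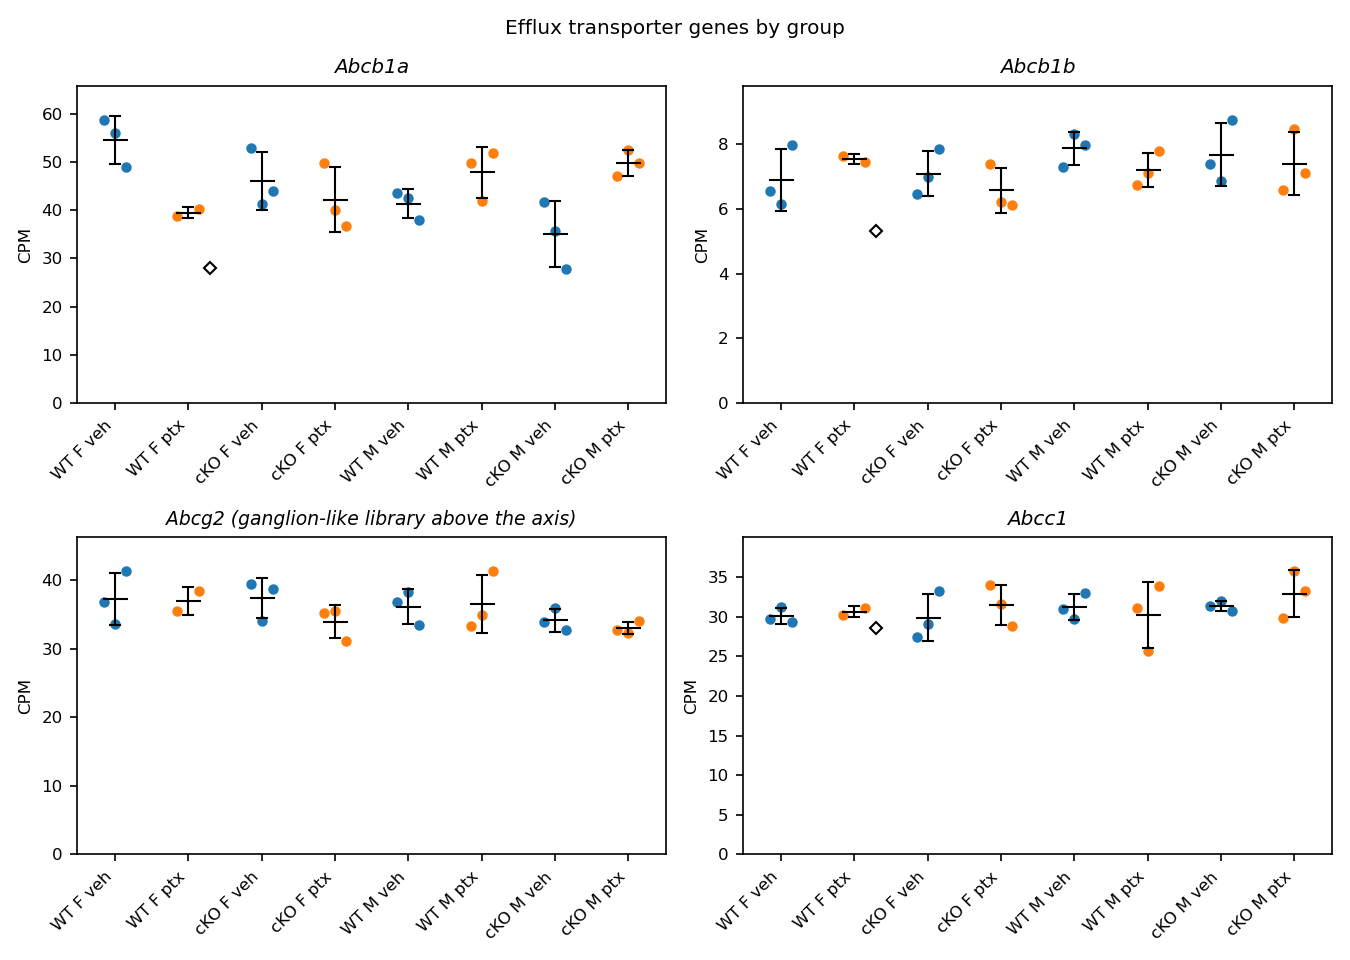
CPM of Abcb1a, Abcb1b, Abcg2 and Abcc1 in each library by group (WT, wild-type; cKO, knockout; F, female; M, male; veh, vehicle, blue; ptx, paclitaxel, orange), with the mean and SD. The open diamond is the ganglion-like library, which lies at 138 CPM for Abcg2, above that axis. For Abcb1a, paclitaxel lies below vehicle in wild-type females and above it in knockout males.

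The smallest p among members belonged to Abce1, which recycles ribosomes after translation ends, at a log2 difference of -0.09 (SE 0.02, edgeR adjusted p = 0.203). Abcd2 followed at -0.10 (SE 0.03, adjusted p = 0.214) and Abca5 at -0.09 (SE 0.03, adjusted p = 0.280). Vehicle cords ran from 119 through a median of 124 to 139 CPM for Abce1, and paclitaxel cords from 104 through 117 to 134 CPM, with wide overlap. For Abcd2 vehicle gave 92.3, 97.6 and 102 CPM and paclitaxel 77.6, 87.9 and 106 CPM, so the paclitaxel cords had the wider spread on both sides.

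Within wild-type cords paclitaxel called 0 of 45 members with edgeR (background 0.0%) and 0 with DESeq2. An unadjusted p under 0.05 was reached by 3 members, 6.67% against 7.97% of all genes. These were Abcd2 (log2 difference -0.11, adjusted p = 0.532 by edgeR), Abca9 (-0.19) and Abcf2 (-0.11). The median over the members was -0.03, with 11 of 45 above 0, and over all genes 0.01. Within knockout cords edgeR called 0 members (background 0.0236%) and DESeq2 1, Abca5, beside 0.497% of all genes. In all, 5 members (11.1%, against 11.3% of all genes) had an unadjusted p under 0.05. There the median was 0.06, with 31 of 45 above 0, against 0.00 over all genes.

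Abca5, a lysosomal member, had the smallest p in knockout cords, at a log2 difference of -0.17 (SE 0.04, edgeR adjusted p = 0.185). It ran from 128 through a median of 135 to 155 CPM in 6 knockout vehicle cords and from 112 through 124 to 127 CPM in 6 knockout paclitaxel cords. The ranges did not overlap. Without knockout male vehicle replicate 1 the same difference passed (edgeR adjusted p = 0.0188). Abce1 differed by -0.11 (adjusted p = 0.231) and Abcb8 by 0.10 (adjusted p = 0.320) in the same comparison.

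Abcb1a had opposite signs in the 2 genotypes and, with the filter on low counts, passed in neither. Its genotype by treatment value was 0.33 (edgeR adjusted p = 0.563). Without that filter edgeR called Abcb1a for paclitaxel in knockout cords, for knockout against wild-type on vehicle and for genotype by treatment. The log2 difference was -0.14 (95% interval -0.36 to 0.08) in wild-type and 0.19 (-0.02 to 0.40) in knockout cords. In the knockout comparison all 12 endothelial marker genes were positive, with a median of 0.32 and none called, and in the wild-type comparison 3 of 12 were, with a median of -0.04. Their part in the result was not tested beyond the covariate. With the endothelial level as a covariate the difference of Abcb1a in knockout cords was -0.10.

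Knockout against wild-type over all cords called 0 of 45 members with edgeR (background 0.0118%) and 0 with DESeq2. Of the 45, 2 had an unadjusted p under 0.05, 4.44% against 3.36% of all genes. Abcc10, an exporter that accepts taxanes, ran from 15.9 to 23.3 CPM in 11 wild-type cords and from 19.3 to 23.6 CPM in 12 knockout cords. The log2 difference was 0.10 (SE 0.04, edgeR adjusted p = 1.00). Abcg2 ran from 33.3 through 36.8 to 41.3 CPM in wild-type and from 31.2 through 34.1 to 39.5 CPM in knockout cords, a log2 difference of -0.09 (SE 0.04, adjusted p = 1.00). The groups overlapped for both.

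The pumps of the Abcb1 pair gave log2 differences between the genotypes of -0.08 (Abcb1a, 95% interval -0.24 to 0.07) and -0.04 (Abcb1b, -0.16 to 0.08), and Abcc1 gave 0.04 (-0.05 to 0.12). Abcg3, a low member, had -0.24 (adjusted p = 1.00 by edgeR). On vehicle alone 0 members were called by edgeR (background 0.00788%) and 0 by DESeq2. Unadjusted p lay under 0.05 in 4 members, 8.89% against 5.20% of all genes. The smallest belonged to Abcg3 (-0.47), Abcc10 (0.13) and Abcb1a (-0.25), each with an edgeR adjusted p of 0.911.

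On paclitaxel alone edgeR called 0 members (background 0.00394%) and DESeq2 0. A total of 6 members, 13.3% against 6.18% of all genes, had an unadjusted p under 0.05. Abca5 (-0.13), Abcf2 (0.14) and Abcf3 (0.09) led, each with an edgeR adjusted p of 0.790. The difference between the genotypes in the response to paclitaxel, tested as an interaction, called 0 members by edgeR (background 0.0%) and 0 by DESeq2. For this interaction 6 members, 13.3% against 8.41% of all genes, had an unadjusted p under 0.05. Abcf2 (0.21, adjusted p = 0.512), Abca5 (-0.16, adjusted p = 0.512) and Abcb8 (0.15, adjusted p = 0.521) had the smallest edgeR p.

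**Figure D3:**
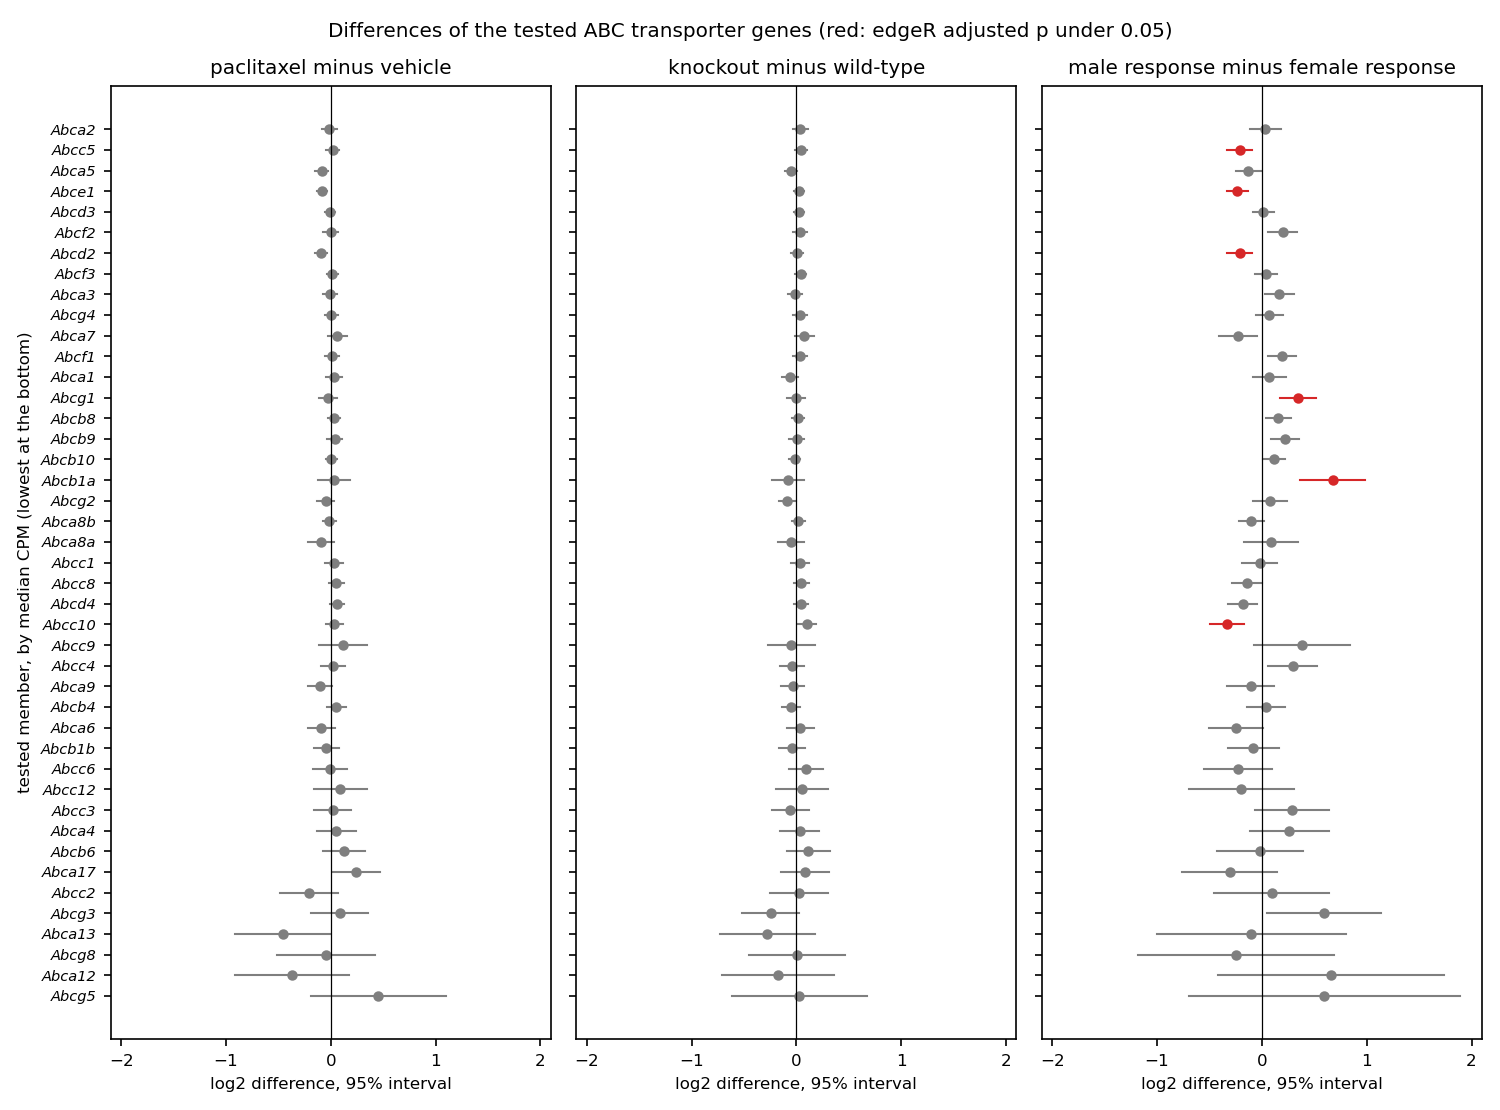
Log2 difference of 43 of the 45 tested members, with 95% intervals, for paclitaxel minus vehicle, knockout minus wild-type and the male minus the female response to paclitaxel. Members run from the lowest median CPM at the bottom to the highest at the top, and red marks an edgeR adjusted p under 0.05. No member is red in the first 2 panels and 6 are in the last, a contrast that is also libraries 1 to 12 against 13 to 24.

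No gene that works with the transporters passed either. Over all cords, none of the 12 tested nuclear receptors and factors that drive ABC genes, 10 drug uptake carriers and drug metabolism genes, 13 lipid acceptors and lipoprotein receptors, 6 channel and peroxisome partners and 3 ABC genes outside the symbol rule (Tap1, Tap2 and Cftr) were called for paclitaxel. None of them was called for genotype. The median log2 differences of these lists ran from 0.01 to 0.08 for paclitaxel.

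Males against females over all cords called 1 of 45 members, 2.22% against a background of 0.918%. DESeq2 called 4 members, 8.89% against 2.3% of all genes, with Abca4, Abcd2 and Abce1 among them. Abcd2 ran from 87.1 through a median of 98.0 to 106 CPM in 11 females and from 77.6 through 93.1 to 102 CPM in 12 males, with overlap. Its log2 difference was -0.10 (SE 0.03, edgeR adjusted p = 0.0676), and that of Abce1 was -0.08 (SE 0.02, adjusted p = 0.111).

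The contrast of the male with the female response to paclitaxel, which cannot be told apart from libraries 1 to 12 against 13 to 24, called 7 of 45 members. That is 15.6% against a background of 4.96% of all tested genes. Averaged over both arms, Abcb1a and Abcg1 were higher in males on paclitaxel and females on vehicle than in the other arms. In the same average Abce1, Abcc10, Abcd2 and Abcc5 were lower. For Abce1 and Abcd2 the paclitaxel difference in females was only 0.03 and 0.01, and in males -0.20 for each. DESeq2 called 9 of the 45 members and 9.36% of all genes. With all 24 libraries edgeR called 0 members, and with the endothelial level as a covariate it called 0 members and 0 of all tested genes. By role, 3 of 9 drug exporters, 1 of 17 lipid carriers, 1 of 4 of peroxisomes and cobalamin, 1 of 4 soluble members and 0 of 2 channel subunits were called.

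Abcb1a had the largest difference. In wild-type females the 3 vehicle cords held 58.7, 55.9 and 48.9 CPM and the 2 paclitaxel cords 38.7 and 40.3 CPM, without overlap. In knockout females vehicle gave 52.9, 41.3 and 44.0 CPM and paclitaxel 49.7, 40.1 and 36.7 CPM, with overlap. Males went the other way.

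In wild-type males Abcb1a stood at 43.6, 42.6 and 37.9 CPM on vehicle and at 49.7, 41.8 and 51.9 CPM on paclitaxel. In knockout males it stood at 41.6, 35.6 and 27.8 CPM on vehicle and at 47.1, 52.5 and 49.7 CPM on paclitaxel, without overlap. The contrast had a log2 value of 0.67 (SE 0.14) with an adjusted p of 0.0203 by edgeR. The log2 difference was -0.31 in females (adjusted p = 0.384) and 0.36 in males (adjusted p = 0.0374), so only males passed. The male difference was 0.03 with the endothelial level as a covariate (adjusted p = 0.958), and 12 of 23 fits without 1 library ended its call (adjusted p up to 0.0901).

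Read as library numbers, Abcb1a lay at 41.3 to 58.7 CPM (median 49.7) in libraries 1 to 12 and at 27.8 to 49.7 CPM (median 40.1) in the 11 cords of libraries 13 to 24. This is 26.3% more in the first set. All 12 of the first set lay above the median of the second and 7 of 12 above its highest value. Without either of the 2 wild-type females on paclitaxel, replicates 1 and 2, the call ended (highest adjusted p by edgeR 0.0641).

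**Figure D4:**
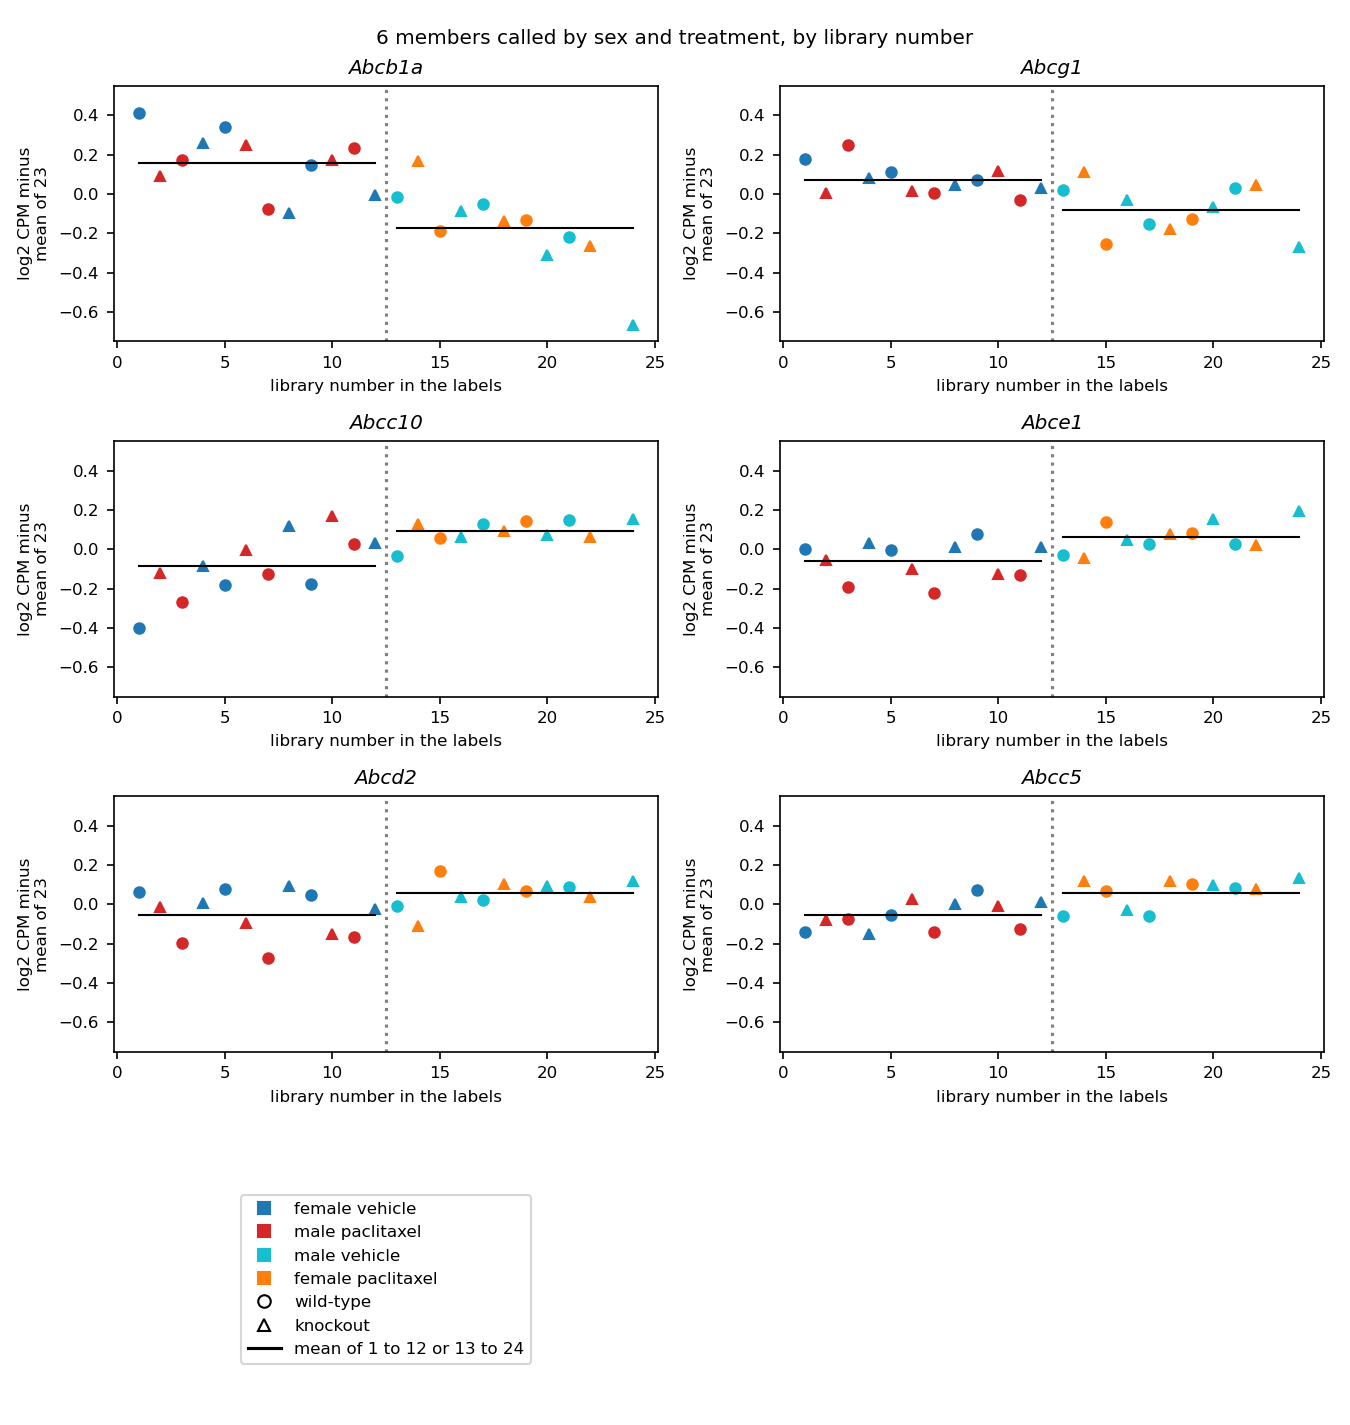
Log2 CPM minus the mean of 23 cords for 6 called members, against the library number in the labels. Colour gives sex and treatment, shape the genotype, and black lines the mean of libraries 1 to 12 and of 13 to 24. Abcb1a and Abcg1 are higher on the left, and the other 4 are higher on the right, with overlap for each member.

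Abcg1, which exports sterols to lipoproteins, ran from 57.0 to 69.3 CPM (median 60.7) in libraries 1 to 12 and from 48.4 to 62.9 CPM (median 55.7) in the others. All 12 of the first set lay above the median of the second. The contrast was 0.34 (SE 0.08, edgeR adjusted p = 0.0239), with -0.20 in females and 0.14 in males, neither of which passed alone. Leaving out replicate 1 of the wild-type females, on vehicle or on paclitaxel, ended the call (adjusted p up to 0.0775).

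In Abce1 the males on paclitaxel stood apart. The 6 cords of that arm held 104 to 117 CPM and all 17 other cords 118 to 139 CPM, without overlap. The gap was narrow, from 117.2 to 118.4 CPM. All 50 members were compared in this way and no other was free of overlap. The share of all genes that separate so was not computed. The contrast was -0.23 (SE 0.05, edgeR adjusted p = 0.0142), with 0.03 in females and a called fall by 0.20 in males (adjusted p = 0.00467), which did not pass with all 24 libraries (adjusted p = 0.274) or with the endothelial covariate (0.881). Leaving out replicate 1 of the wild-type females on paclitaxel gave an adjusted p of 0.0514.

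Abcd2 had the same shape with overlap. This gene, a peroxisomal carrier of fatty acids, stood at 77.6 to 92.9 CPM in males on paclitaxel and 87.1 to 106 CPM in the 17 other cords. Its contrast was -0.21 (SE 0.06, edgeR adjusted p = 0.0290), with 0.01 in females and a called fall by 0.20 in males. Leaving out 1 library ended the call of Abcd2 in 11 of 23 runs.

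For Abcc5 and Abcc10 the signs were opposite in the sexes, at 0.12 in females and -0.09 in males for Abcc5 and at 0.20 and -0.13 for Abcc10, none passing alone. Abcc5 ran from 286 through a median of 303 to 334 CPM in libraries 1 to 12 and from 304 through 335 to 348 CPM in libraries 13 to 24, and all 12 of the first set lay below the median of the second. Its contrast was -0.21 (SE 0.06, edgeR adjusted p = 0.0356), lost in 12 of 23 runs without 1 library. Abcc10 ran from 15.9 through 19.5 to 23.6 CPM in the first set and from 20.5 through 22.4 to 23.3 CPM in the second, with a contrast of -0.33 (SE 0.08, adjusted p = 0.0206). That call ended without replicate 2 of the wild-type females on paclitaxel (adjusted p = 0.0551).

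Males alone gave calls in 5 of 45 members for paclitaxel, 11.1% against a background of 6.69%. Abcb1a was higher, and Abce1, Abcd2 and Abca5 were among those lower. With all 24 libraries, and with the endothelial level as a covariate, edgeR called 0 of the 45 members and 0 of all tested genes in males. DESeq2 called 6 members, 13.3% against 10.5% of all genes. Abca5 fell by 0.15 (SE 0.04, edgeR adjusted p = 0.0213). Females alone gave 0 calls by edgeR among the 45 (background 0.00394%) and 0 by DESeq2. Here 9 members, 20% against 9.37% of all genes, had an unadjusted p under 0.05. Each of these contrasts is confounded with the library number in the same way.

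Markers of vessels lay on the same side as Abcb1a in this contrast. All 12 endothelial markers were positive in it, with a median of 0.38, and Tek and Tie1 were called, while 9 of 10 mural markers were positive with a median of 0.33, and Notch3 was called. The endothelial list summed to 453 to 542 CPM (median 526) in libraries 1 to 12 and to 361 to 684 CPM (median 451) in libraries 13 to 24, and no marker of it was at 0 throughout. Of 10 astrocyte markers 7 were positive (1 called), of 10 oligodendrocyte markers 5 (3 called), of 10 microglial markers 8 (2 called) and of 10 neuronal markers 8 (3 called). Over all tested genes 49.3% were positive and 4.96% called.

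Of 44 tested partner genes 11 were called in this contrast, 25% against 4.96% of all tested genes. These were 2 of 12 nuclear receptors and factors, 4 of 10 uptake and metabolism genes, 1 of 3 ABC genes outside the rule, and others. They included Srebf1 (0.32) and Srebf2 (0.26), factors of lipid synthesis, the lipid-binding chaperone Clu (0.35) and the lipoprotein receptor Vldlr (-0.19). Also called were Por (0.36), the electron donor of cytochromes P450, the carriers Slco1c1 (0.28), Slco2b1 (0.31) and Slc22a8 (0.33), and the peptide transporter Tap2 (0.33). All of these named genes but Vldlr were higher in the first set of libraries.

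Abcb1a varied with the endothelial markers over the 23 cords. Against the mean log2(CPM + 0.5) of the 12 markers, Pearson's r of Abcb1a was 0.82 and Spearman's rho 0.83 (two-sided permutation p = 2e-05 and 4e-05, or 8e-05 and 0.00016 adjusted over 4 genes by Benjamini-Hochberg). The value 2e-05 is the smallest that 100000 permutations can give. Without the 2 cords farthest from the median marker level, knockout female paclitaxel replicate 1 and knockout male vehicle replicate 3, r was 0.83. It was 0.52 within libraries 1 to 12 (n = 12) and 0.90 within libraries 13 to 24 (n = 11), with no test within either set.

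For Abcg2, which is also an endothelial pump, r was 0.07 and rho 0.04 (permutation p = 0.775 and 0.851). For Abcb1b r was -0.24 and rho -0.17 (p = 0.284 and 0.451), and for Abcc1 0.22 and 0.32 (p = 0.316 and 0.135), all two-sided permutation values. Within libraries 1 to 12 and 13 to 24, r was -0.35 and 0.22 for Abcg2, -0.06 and -0.25 for Abcb1b and 0.33 and 0.49 for Abcc1. Whether these relations differ from that of Abcb1a was not tested. With the endothelial level as a covariate the contrast of Abcb1a was 0.31 in place of 0.67 (edgeR adjusted p = 0.676). Under the same covariate those of Abce1 (-0.16), Abcc10 (-0.29), Abcg1 (0.20), Abcd2 (-0.11) and Abcc5 (-0.15) kept their sign, and none passed.

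**Figure D5:**
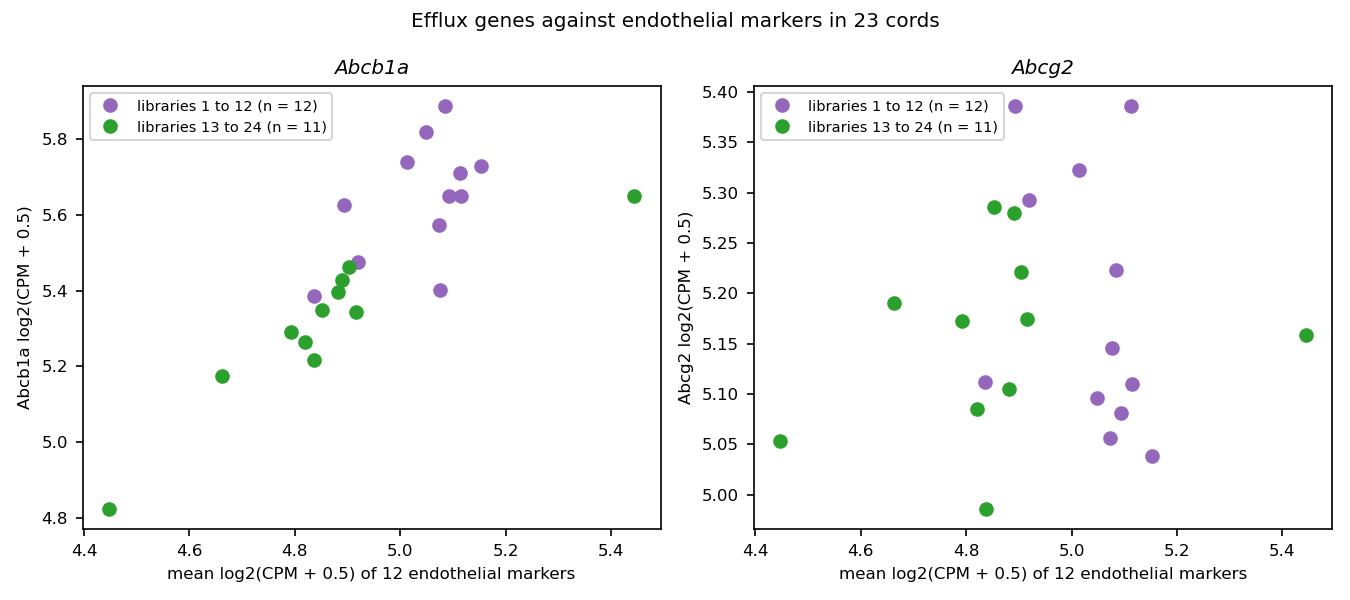
Log2(CPM + 0.5) of Abcb1a and of Abcg2 against the mean of the same quantity over 12 endothelial markers, 1 point per cord, coloured by library number. Abcb1a climbs with the markers over all cords (r = 0.82), with r of 0.52 in libraries 1 to 12 and 0.90 in 13 to 24. Abcg2 shows no such relation over all cords (r = 0.07).

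Most ABC genes in the ganglion-like library lay within the limits of the cords. A member was counted as apart when it lay outside the range of the 23 cords and at least 2-fold from their median. Of 45 tested members 31 lay within these limits, 8 were higher, 17.8% against 11.4% of all tested genes, and 6 lower, 13.3% against 17.2%. With 1 library there is no test, and each ratio describes that library.

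The 8 higher members were 6 of subfamily A and 2 of subfamily G. Abca6 stood at 116 CPM, 12.3-fold its median in the cords, Abca8a at 335 CPM (10.0-fold), Abca12 at 1.70 CPM (8.84-fold) and Abca8b at 147 CPM (4.26-fold). Abcg2 stood at 138 CPM (3.91-fold), Abca7 at 213 CPM (3.18-fold), Abca1 at 126 CPM (2.09-fold) and Abcg8 at 0.412 CPM (2.03-fold). Abca14 and Abcb5, which were not tested, had 12 and 10 counts there, above every cord. Per kilobase Abca8a was the highest member there, at 53.4, where Abca2 led in the cords.

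Lower were Abca2 at 202 CPM (0.344 of its median in the cords), Abcd2 at 44.6 CPM (0.463), Abcc8 at 10.8 CPM (0.358), Abcc9 at 4.81 CPM (0.250), Abcc6 at 0.770 CPM (0.204) and Abcc2 at 0.127 CPM (0.152). Abcb1a stood at 27.9 CPM, 0.640 of its median, and Abcb1b at 5.33 CPM (0.730). The endothelial markers were at 56.2% of their median sum in this library, the astrocyte markers at 15.8%, the fibroblast and meningeal markers at 408% and those of choroid plexus and ependyma at 644%. How far each list accounts for the values of the members was not tested.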

How the data were processed

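RNA of 24 lumbar cords was sequenced. The authors deposited 1 table of whole-number counts per gene symbol. STAR, with no version stated, and featureCounts 1.6.2 made the table, per the submitters' processing notes. Exons of the GRCm38 annotation, Ensembl release 96, were counted by gene name without strand, and the command held no option for read pairs or for reads with several positions, per the file headers. Mates of a pair were then counted as separate reads, and odd values made up 34.4 to 37.3% of counts from 1 to 20. All 37 mitochondrial genes were at 0.

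Counts of 23 libraries were fitted in R 4.3.3 with edgeR 4.0.16 (filterByExpr over 8 groups, TMM, robust quasi-likelihood on group means). Calls were taken at a Benjamini-Hochberg adjusted p under 0.05 over 25372 genes. DESeq2 1.42.0 was an alternative, beside RLE size factors, no filter, all 24 libraries, a replicate block, the endothelial level as a covariate and each library left out. Contrasts within 1 sex were added after seeing the data. CPM rest on library totals without TMM. The fit was tested on simulated data. Member sequences came from GENCODE M21 transcripts.

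The members and all gene lists were chosen with earlier results of these data known. Named were the 4 pumps Abcb1a, Abcb1b, Abcg2 and Abcc1, every called member and the 3 smallest p of each contrast. Some genes that the counts include are not reported here by name or drawn. Same-numbered replicates did not deviate together (correlations -0.07 to 0.09), and no label pairs mice by number. These correlations cannot show whether such mice were handled together. No label says how far the cords were processed apart, and p-values measure the spread between mice and libraries together.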

Additional observations from a re-analysis of the deposited data

Results flagged for a closer look

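The response to paclitaxel differed between males and females in 7 of 45 members by an interaction test (edgeR adjusted p under 0.05). Their share was 15.6%, against 4.96% of all tested genes. In the fits with all 24 libraries or with the endothelial covariate, edgeR called 0 members and 0 of all tested genes. The male minus the female log2 response was 0.67 for Abcb1a, 0.34 for Abcg1, -0.23 for Abce1, -0.33 for Abcc10, -0.21 for Abcd2 and -0.21 for Abcc5. The labels' library numbers 1 to 12 against 13 to 24 form the same contrast, so sex by treatment and library number cannot be told apart in these data. Among the 64 sets of 5 or 6 cords checked over 16 named members, none held a cord far from the others by Dixon's criterion.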

How the results depend on the processing

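The counts of called members stayed within 1.5 times of those reported with RLE size factors in all 9 contrasts. DESeq2 called 1 member for paclitaxel over all cords (0 with edgeR), 1 for paclitaxel in knockout (0) and 4 for males against females (1). Its shares of all genes in these contrasts were 0.623%, 0.497% and 2.3%. Without the filter on low counts 3 members were called for paclitaxel in knockout (Abca5, Abcb1a and Abcc9), beside 470 of all 41809 genes. In the same fit 1 was called for knockout on vehicle (Abcb1a), beside 111 genes. For genotype by treatment it called 2 (Abcb1a and Abcc9), beside 366 genes. It called 4 for males against females, beside 749 genes, and 12 for sex by treatment. With all 24 libraries 0 members were called for males against females and 0 for sex by treatment. With the endothelial covariate 3 were called for males against females, beside 1.84% of all genes, and 0 for sex by treatment. The replicate block, though no label pairs mice by number, gave 11 for sex by treatment and changed no other count of the 9 contrasts. Leaving out 1 library gave 0 to 1 for paclitaxel in knockout, 0 to 2 for males against females and 1 to 12 for sex by treatment. The count for sex by treatment was 1 without wild-type female paclitaxel replicate 1, which leaves 1 cord in that group, assumed to vary like the others, 12 without knockout male vehicle replicate 1, and 3 or 4 in 10 other runs. The counts over all genes moved too: for sex by treatment 4.96% of all genes were called as reported, 5.22% without the filter, 7.45% with the block, 0 genes with all 24 libraries or the covariate, and 248 to 2419 genes without 1 library. For paclitaxel in knockout 0 to 332 genes were called without 1 library. The causes were not tested.

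Signs turned in differences that did not pass. For paclitaxel over all cords Abcb1a was -0.0065 with all 24 libraries, -0.12 with the endothelial covariate and -0.010 to 0.058 without 1 library, Abcg2 was 0.20 with all 24 libraries and Abcc1 -0.0083 with the covariate. In wild-type Abcb1b was 0.0096 with the replicate block and -0.046 to 0.046 without 1 library, Abcg2 0.49 with all 24 libraries and -0.056 to 0.027 without 1, and Abcc1 -0.065 to 0.025 without 1. In knockout Abcb1a was -0.10 with the covariate. In females Abcd2 was -0.13 with all 24 libraries and -0.027 to 0.042 without 1. At low depth little could be seen: for Abcg5, at a median of 0.192 CPM, the 95% interval of the paclitaxel difference ran from -0.19 to 1.10.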
